A study of Mus musculus with 384 samples.

Results

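Neutrophils carry their granule proteins ready-made, and the transcripts of those proteins are made one set after another while the cell matures in the bone marrow. Mmp9, Mmp25, Adam8, Retnlg, Slpi and Hp are 6 of the 23420 genes in the table. They encode granule, membrane or secreted proteins and are grouped here under the label late granule proteases and Retnlg. Their levels were followed across neutrophils ordered by the genes of the specific granule, the set made before the gelatinase granule. The genes were chosen by name, with earlier results of these data known. The neutrophils were the 286 of 326 cells with at least 10000 TPM of S100a8 and S100a9 together, the pair of transcripts that encode calprotectin. The order came from a granule score, the mean log2(TPM + 1) of Camp (cathelicidin), Ngp (neutrophilic granule protein), Ltf (lactoferrin) and Lcn2 (lipocalin 2). TPM is a transcript's abundance for its length, as a share of a fixed total of 1000000 per cell.

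The cells came from mouse spinal cord and were taken by flow cytometry after staining for CD45, CD11b and CX3CR1, one cell per well, and were sequenced by SmartSeq2, a full-length method that has no molecular identifiers. All of them carry the genotype label Optn KO, a knockout of optineurin. No cell of another genotype, no treatment and no other time was analysed here. The data therefore hold no measure of what the knockout does, and the labels used here give neither the age of the mice nor how the Optn allele was made. Optn was listed at 0 in all 326 cells, which allows a share of up to 0.920% of cells with a value above 0. There were 2 replicates of 2 plates each, with 131 neutrophils in replicate 1 and 155 in replicate 2. The labels do not say whether the replicates are separate mice. Each p-value rests on how far class differences varied between these 2 samples, which may be technical, and on a variance taken from all genes tested. The remaining 40 cells, 23 and 17 by replicate, are called other sorted cells.

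Within each plate the neutrophils were put in order of score and cut into 3 classes of equal size, called granule-low (45 cells in replicate 1 and 52 in replicate 2), granule-middle (43 and 52) and granule-high (43 and 51). The mean score was 3.19 and 3.40 in the granule-low class, 10.6 and 11.1 in the granule-middle class, and 15.2 in both replicates in the granule-high class. Scores ran on across both borders, and 27 cells lay within 0.5 of the lower border and 43 within 0.5 of the upper one. Inside the granule-middle class they were uneven, with a gap that held no cell. It ran from 9.04 to 12.80 on plate 1, from 9.82 to 13.53 on plate 2 and from 10.43 to 12.80 on plate 4. On plate 3 it was shorter, from 9.97 to 11.49. Averages of the granule-middle class therefore pool cells from both sides of this gap. At least 3 of 5 neutrophil markers (Csf3r, Cxcr2, Fpr1, Il1r2 and Trem1) were above 0 in 95 of 97 granule-low cells, 92 of 95 granule-middle cells and 81 of 94 granule-high cells. At least 3 of 5 monocyte markers were above 0 in 0, 1 and 0 cells of these classes, and at least 3 of 11 microglia markers in 0 cells of any class. The summed mean TPM of the monocyte markers was 848 and 275 in the granule-low class and 2782 and 2202 in the granule-middle class. It was 2777 and 2866 in the granule-high class, against 6976 and 6817 in the other sorted cells. The summed mean TPM of the neutrophil markers fell as the score rose. It was 9001 and 8979 in the granule-low class, 5717 and 6000 in the granule-middle class and 1822 and 1880 in the granule-high class. In the other sorted cells it was 2457 and 1707, so by this sum the granule-high class did not stand apart from them. At least 3 of 4 B cell markers were above 0 in 2 granule-low cells. Sequencing depth is not recorded in TPM, and the number of genes above 0 stood in for it. Its median rose with the score, from 1402 and 1335 genes in the granule-low class to 1692 and 1577.5 in the granule-middle and 2122 and 2044 in the granule-high class. Cells with Mki67 or Top2a above 0, transcripts of dividing cells, made up 30.2% and 27.5% of the granule-high class, 6.98% and 7.69% of the granule-middle class and 8.89% and 7.69% of the granule-low class. The score genes themselves took 18.3% and 19.0% of all TPM in the granule-high class, 5.13% and 4.81% in the granule-middle class and 0.309% and 0.396% in the granule-low class. S100a8 and S100a9 together took 17.2% and 16.1%, 17.0% and 17.0%, and 9.96% and 9.35% in the same order. Such shares lower every other gene's TPM where the score is high. They also lower it in the granule-middle class relative to the granule-low class.

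As background, neutrophil granules form in order. Azurophil granules with myeloperoxidase and elastase come first, specific granules with lactoferrin and cathelicidin follow, and gelatinase granules with Mmp9 come last, before the secretory vesicles. A granule protein is packed while its gene is active, so a mature neutrophil can hold much of a protein whose transcript has gone. Transcription factors of the C/EBP family and PU.1 act on many of these genes. The label of this gene set speaks of late granule proteases, and only Mmp9, Mmp25 and Adam8 are proteases. Slpi is a protease inhibitor, Retnlg a secreted protein of the resistin family and Hp a haemoglobin-binding protein that in human neutrophils is kept in specific granules.

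The 250 bases before the RefSeq start of transcription are shown for the 3 genes with the greatest differences between classes, Retnlg, Slpi and Adam8 (GRCm38.p6, each on the gene's own strand, 5′ to 3′). Capitals mark matches to TTGCNNAA, a core of the sites that C/EBP factors bind, searched on both strands.
Retnlg, chr16:48872358-48872607, plus strand: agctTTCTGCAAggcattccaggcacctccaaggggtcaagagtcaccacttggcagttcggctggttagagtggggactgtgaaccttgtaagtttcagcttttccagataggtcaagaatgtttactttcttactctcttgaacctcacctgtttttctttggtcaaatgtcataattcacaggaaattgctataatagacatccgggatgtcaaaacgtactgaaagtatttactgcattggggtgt
Slpi, chr2:164356508-164356757, minus strand: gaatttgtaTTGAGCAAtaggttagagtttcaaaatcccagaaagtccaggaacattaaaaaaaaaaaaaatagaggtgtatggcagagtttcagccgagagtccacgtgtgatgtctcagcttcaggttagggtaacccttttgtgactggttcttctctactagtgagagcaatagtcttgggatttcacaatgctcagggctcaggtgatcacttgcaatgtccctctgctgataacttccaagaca
Adam8, chr7:139992563-139992812, minus strand: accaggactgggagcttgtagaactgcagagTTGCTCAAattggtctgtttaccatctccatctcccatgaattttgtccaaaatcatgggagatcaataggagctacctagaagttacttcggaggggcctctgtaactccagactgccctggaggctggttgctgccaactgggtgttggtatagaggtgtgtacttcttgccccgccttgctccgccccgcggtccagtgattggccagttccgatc
Each held 1 match, 246 bases before the start in Retnlg, 241 in Slpi and 219 in Adam8, and none held GAGGAA, a core of PU.1 sites. The Mmp25 window (chr17:23645270-23645519, minus strand) held no TTGCNNAA and 1 GAGGAA, 13 bases before the start. Among the score genes Ngp held 2 matches to TTGCNNAA, Ltf and Lcn2 1 each with 1 GAGGAA each, and Camp neither. Of all 32851 promoters of this length, 9.56% held TTGCNNAA and 23.3% held GAGGAA. No match overlapped another. A match describes these letters and not a bound site.

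Against the granule-high class, 5 of the 6 genes were higher in the granule-low class and 4 in the granule-middle class, and none was lower. Between the granule-low and granule-middle classes 3 were lower in the first, Mmp9, Mmp25 and Retnlg. The comparisons were made with limma on 1 average per class and replicate, with p-values adjusted over 4049 genes by Benjamini-Hochberg. The background was high in the first comparison, where 20.4% of all genes tested passed, 14.7% as higher and 5.78% as lower. It was 6.92% between the granule-middle and granule-high classes, with 5.85% higher and 1.06% lower, and 3.93% between granule-low and granule-middle, with 1.8% higher and 2.12% lower. The median log2 fold over all tested genes was 0.31, 0.18 and 0.19 in these comparisons, and over the 6 genes it was 0.998, 1.32 and -0.32. For granule-low against granule-high, Hp (0.39) and Mmp9 (0.44) lay near the median of all genes. Both lost their call when TPM was rescaled without the score genes. None of the 6 passed when the score was taken as its residual on the number of genes above 0. The 6 were chosen with earlier results known, so these shares serve as a scale. All 6 passed the filter on low values (a mean of at least 5 TPM, and above 0 in at least 10% of neutrophils). Folds are on the scale log2(mean TPM + 1), on which the change of a gene near 0 comes out too small. The classes are cut from the same cells and the comparisons share their averages, so the values for a gene are not independent of each other.

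**Figure D1:**
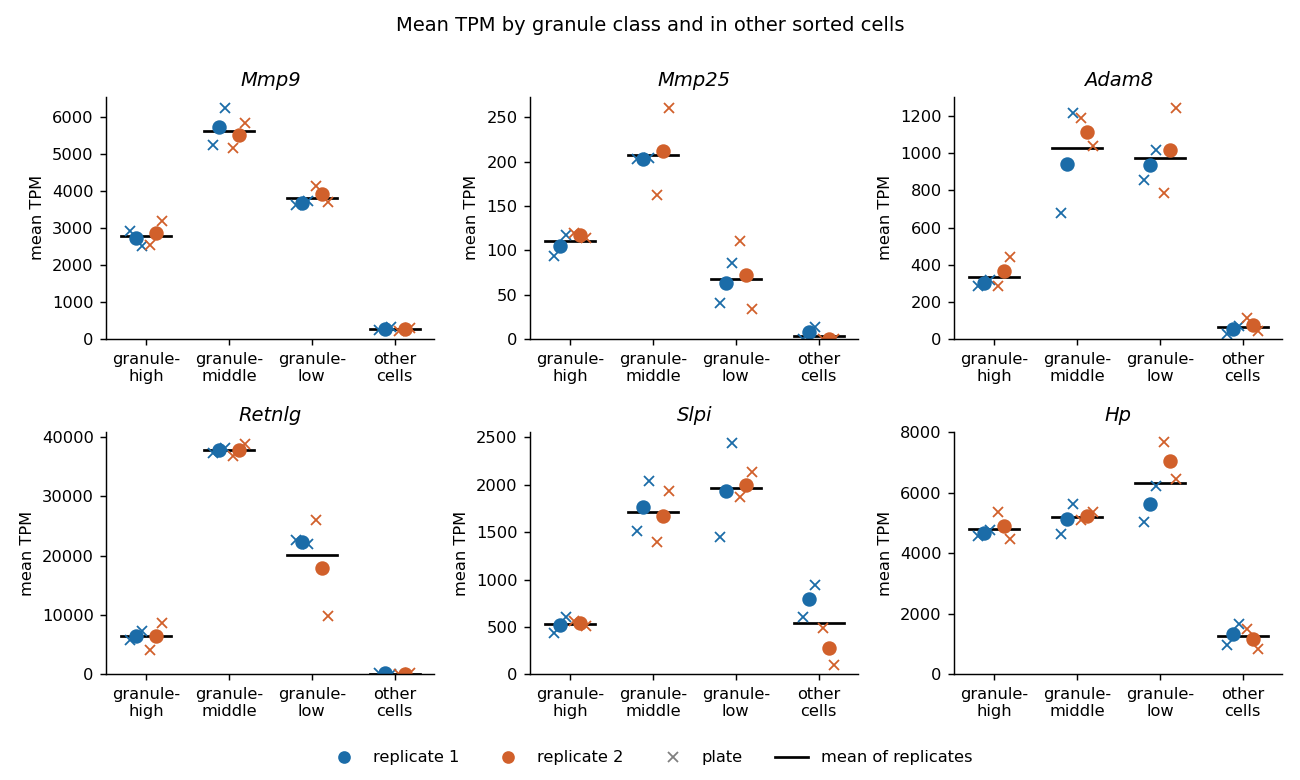
Mean TPM (vertical axes, each from 0) of each gene in the 3 granule classes and the other sorted cells. Large points are replicates, crosses plates, black lines the mean of the 2 replicates. Retnlg, Mmp9 and Mmp25 stood highest in the granule-middle class, Slpi and Adam8 were low in the granule-high class, and Hp stayed between 4670 and 7050 TPM in neutrophils of each replicate.

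Mmp9 is gelatinase B, which cleaves denatured collagen and other matrix proteins and gives the gelatinase granule its name. It lies on chr2:164940780-164955850 on the plus strand (GRCm38, GENCODE). Its mean level was 2726 and 2864 TPM in the granule-high class of replicates 1 and 2, 5744 and 5511 TPM in the granule-middle class, and 3681 and 3924 TPM in the granule-low class. Neither the replicates nor the plates of the 3 classes overlapped, with 2519 to 3182 TPM per plate in the first, 5176 to 6256 in the second and 3619 to 4147 in the last. Mmp9 was 2.01-fold higher in the granule-middle than in the granule-high class (log2 fold 1.01, SE 0.086, limma adjusted p = 0.00121), and lower in the granule-low than in the granule-middle class (log2 fold -0.57, adjusted p = 0.0228). The second difference kept its direction in all 22 alternatives and lost its call in 7. It was above 0 in 90.4% ± 0.355 of granule-high cells, 97.9% ± 0.285 of granule-middle cells and 98.9% ± 1.57 of granule-low cells (SD, n = 2).

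The granule-low class stood above the granule-high class in Mmp9 by a log2 fold of 0.44 (adjusted p = 0.0127). That difference kept its direction and its call, or had no test, in 14 of 24 alternatives, lost its call in 6 and turned in 4. The granule-high cells with Mki67 or Top2a averaged 1213 TPM (13 cells) and 1308 TPM (14 cells), against 3382 and 3453 TPM in those without. Without such cells in any class the fold of granule-low against granule-high was -0.02 (adjusted p = 0.913), while those of granule-middle against granule-high (0.60, adjusted p = 0.0125) and of granule-low against granule-middle (-0.62, adjusted p = 0.0203) held. It was 0.02 (adjusted p = 0.875) when TPM was rescaled without the score genes, S100a8, S100a9 and the ribosomal transcript Rn45s. The part of dividing cells in the difference was not tested further.

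Mmp25 encodes a membrane-anchored matrix metalloproteinase of leukocytes, also called leukolysin or MT6-MMP, and lies on chr17:23628311-23645277 on the minus strand. It was the least abundant of the 6, with 105 and 117 TPM in the granule-high class, 203 and 211 TPM in the granule-middle class and 62.6 and 71.9 TPM in the granule-low class. The replicates did not overlap between classes, but plates did: the granule-low class ranged from 33.5 to 110 TPM per plate and the granule-high class from 93.2 to 119. The granule-low class was 3.06-fold below the granule-middle class (log2 fold -1.61, SE 0.33, adjusted p = 0.0466). That difference kept its direction in all 22 alternatives, from -3.54 to -0.91, but lost its call in 10 of them. Granule-middle against granule-high did not pass (log2 fold 0.90, 95% interval 0.12 to 1.67 before adjustment, adjusted p = 0.169), nor did granule-low against granule-high (-0.71, interval -1.49 to 0.06, adjusted p = 0.174).

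The share of cells with Mmp25 above 0 was 71.3% ± 1.06 in the granule-high class, 69.5% ± 0.379 in the granule-middle class and 25.5% ± 4.68 in the granule-low class (SD, n = 2). Cells in the granule-low class also had the fewest genes above 0. Among cells with 1000 to 2000 genes above 0 the fold of granule-low against granule-high was -1.73 (adjusted p = 0.0344). Across cells Mmp25 was the only gene of the 6 with a positive Spearman's rho with the score in all 4 plates, between 0.19 and 0.36. Its mean level was still highest in the granule-middle class. Its rho with the number of genes above 0 was similar, between 0.17 and 0.34.

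Adam8 encodes a membrane protein with a metalloprotease and a disintegrin domain, found on leukocytes. It lies on chr7:139978932-139992562 on the minus strand, where an exon overlaps Gm16201 on the other strand. SmartSeq2 keeps no strand, so reads of the overlap cannot be told apart. Its level was 301 and 365 TPM in the granule-high class, 940 and 1112 TPM in the granule-middle class and 935 and 1015 TPM in the granule-low class. All plates of the first class, at most 441 TPM, lay below all plates of the other classes, at least 677 TPM. Adam8 was 2.93-fold higher in the granule-low than in the granule-high class (log2 fold 1.55, SE 0.16, adjusted p = 0.000846) and 3.08-fold higher in the granule-middle class (1.62, adjusted p = 0.00205). The granule-low and granule-middle classes did not differ past the threshold (log2 fold -0.07, 95% interval -0.44 to 0.30, adjusted p = 0.844), and the 4 plates differed in sign. Among cells with 1000 to 2000 genes the fold of granule-low against granule-high was 0.50 (adjusted p = 0.148).

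Retnlg encodes resistin-like gamma, a small secreted protein of rodent bone marrow and neutrophils, and lies on chr16:48872621-48874496 on the plus strand. It was by far the most abundant of the 6, ranking as transcript 4 of the granule-low and granule-middle classes and 12 of the granule-high class by mean TPM. Its level was 6492 and 6425 TPM in the granule-high class, 37732 and 37848 TPM in the granule-middle class and 22270 and 17895 TPM in the granule-low class. The plates of the granule-middle class ranged from 36820 to 38875 TPM, above all others. Retnlg was 5.85-fold higher in the granule-middle than in the granule-high class (log2 fold 2.55, SE 0.084, adjusted p = 4.92e-05), and in the granule-low class it was lower than in the granule-middle class (log2 fold -0.92, adjusted p = 0.00332). The second difference kept its direction in all 22 alternatives and lost its call in 6.

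The granule-low class was uneven in Retnlg. Its plates ranged from 9823 to 25968 TPM, with the low value on 1 plate of replicate 2, and with averages per plate the difference from the granule-middle class missed the threshold (log2 fold -1.003, adjusted p = 0.0711). The median cell had 21766 TPM in replicate 1 and 9388 TPM in replicate 2. Granule-low against granule-high gave a log2 fold of 1.63 (limma adjusted p = 5.28e-05). By plate this fold was uneven, at 1.97, 1.60, 2.64 and 0.19 on plates 1 to 4. On plate 4 the classes were nearly level, with 9823 TPM in granule-low and 8600 TPM in granule-high cells. The fold was 0.78 without cells with Mki67 or Top2a (adjusted p = 0.00307). Among cells with 1000 to 2000 genes it was -0.38, the opposite direction (adjusted p = 0.0376). In those cells the granule-middle class remained above both, by log2 folds of 1.02 over granule-high (adjusted p = 0.00173) and 1.40 over granule-low, written as -1.40 for granule-low against granule-middle (adjusted p = 0.000352). None of the other 3 resistin family genes in the table passed the filter.

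Slpi, the secretory leukocyte protease inhibitor, blocks neutrophil elastase and cathepsin G, enzymes of the azurophil granules. It lies on chr2:164354070-164389095 on the minus strand, with Mir7678 inside an exon, and the longest annotated transcript starts upstream of the promoter printed above. Its level was 524 and 538 TPM in the granule-high class, 1771 and 1667 TPM in the granule-middle class and 1937 and 2001 TPM in the granule-low class. No granule-high plate (442 to 611 TPM) reached a plate of the other classes (1398 to 2441 TPM). Slpi was 3.70-fold higher in the granule-low than in the granule-high class (log2 fold 1.89, SE 0.13, adjusted p = 0.000146) and 3.23-fold higher in the granule-middle class (1.69, adjusted p = 0.000778). Granule-low against granule-middle was 0.20 (95% interval -0.10 to 0.49, adjusted p = 0.417). Among cells with 1000 to 2000 genes the fold of granule-low against granule-high was 0.95 (adjusted p = 0.0123).

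Hp encodes haptoglobin, which binds free haemoglobin and is known above all as a plasma protein of the liver. Its level was 4670 and 4916 TPM in the granule-high class, 5123 and 5242 TPM in the granule-middle class and 5613 and 7050 TPM in the granule-low class. It was above 0 in 284 of 286 neutrophils, and its rank by mean TPM was 20 in each class. The granule-low class was 1.31-fold above the granule-high class (log2 fold 0.39, SE 0.094, adjusted p = 0.0277), a difference close to the median of all genes, 0.31. When TPM was rescaled without the score genes it was 0.10 (adjusted p = 0.521), and without S100a8, S100a9 and Rn45s as well it was -0.10 (adjusted p = 0.496). Granule-middle against granule-high gave 0.11 (95% interval -0.11 to 0.34, adjusted p = 0.559) and granule-low against granule-middle 0.28 (adjusted p = 0.160). The difference between granule-low and granule-high lost its call in 8 of 24 alternatives, some of which change no scaling, and turned in 1.

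With the score cut into 5 finer classes, numbered from 1 (lowest) to 5 (highest), the genes differed in where they were highest. Retnlg, Mmp9 and Mmp25 were highest in class 3 in both replicates. Retnlg went from 4874 and 3497 TPM in class 5 through 12107 and 16299 in class 4 to 41565 and 38512 in class 3, stayed at 36242 and 33466 in class 2 and was 14910 and 12025 in class 1. Camp, Ltf, Ngp and Lcn2 define the score, so their high level in class 5 is fixed by the rule and is given as a scale only. In class 2 the means of Camp and Ltf were 0.188% and 0.00451% of their class 5 level, while Ngp stood at 2.86% and Lcn2 at 22.8% of theirs. Adam8 was highest in class 2 in both replicates, at 1174 and 1316 TPM, against 242 and 313 in class 5. Slpi had means between 1636 and 2223 TPM in classes 1, 2 and 3, and 493 and 461 TPM in class 5. Mmp25 was above 0 in 71.0% ± 1.41 of cells of class 5, 65.6% ± 1.52 of class 3 and 16.5% ± 7.61 of class 1 (SD, n = 2).

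**Figure D2:**
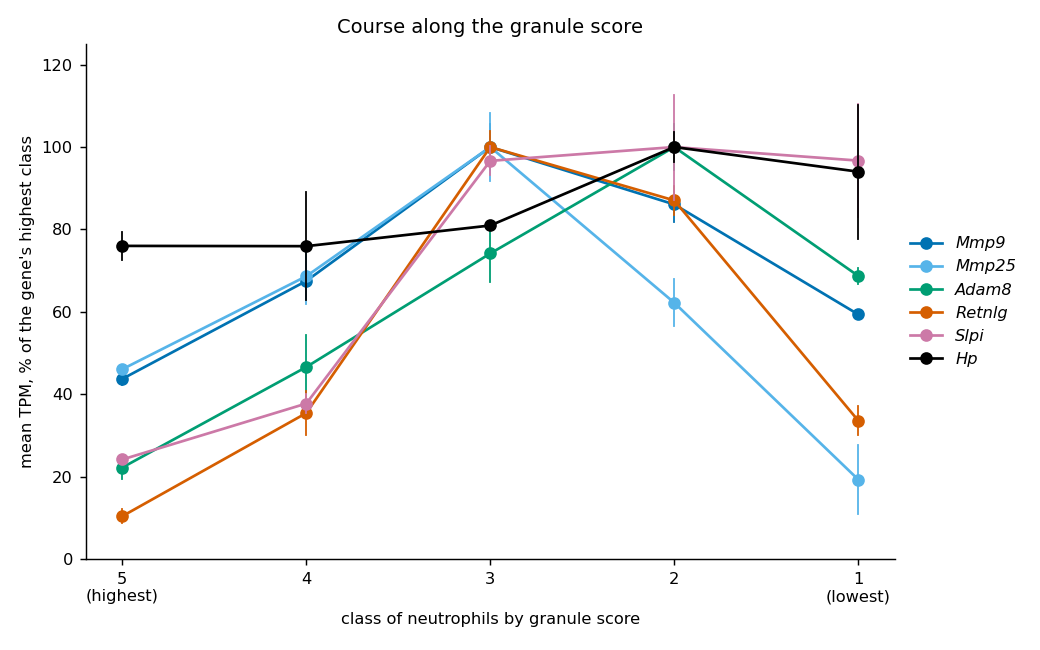
Mean TPM of each gene over 5 classes of the granule score (horizontal axis, highest score on the left), as a percentage of the gene's highest class. Points are means of 2 replicates and vertical lines join the replicates. Retnlg stood at 10.5% of its highest level in class 5 and at 33.6% in class 1, and Slpi at 24.2% and 96.7%.

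Across single neutrophils Spearman's rho measured how far each gene rose or fell steadily with the score, and it does not capture a level that is highest in the middle. Within plates of 64 to 78 neutrophils, rho with the score ran from -0.20 to -0.08 for Mmp9, from -0.40 to -0.21 for Adam8, from -0.42 to -0.08 for Retnlg, from -0.49 to -0.26 for Slpi and from -0.26 to 0.00 for Hp. The score itself followed the number of genes above 0, with rho between 0.69 and 0.76, so cells of one plate share that difference too. Among pairs of the 6 genes the closest was Mmp9 with Retnlg, with a mean rho over plates of 0.56 (range 0.49 to 0.65), then Adam8 with Retnlg at 0.44 and Mmp9 with Adam8 at 0.44. Hp had a mean rho of at most 0.18 with any of the others. All 6 genes were above 0 together in 128 neutrophils (44.8%), of which 63 were granule-middle, 42 granule-high and 23 granule-low cells, and each neutrophil had at least 1 of them above 0.

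**Figure D3:**
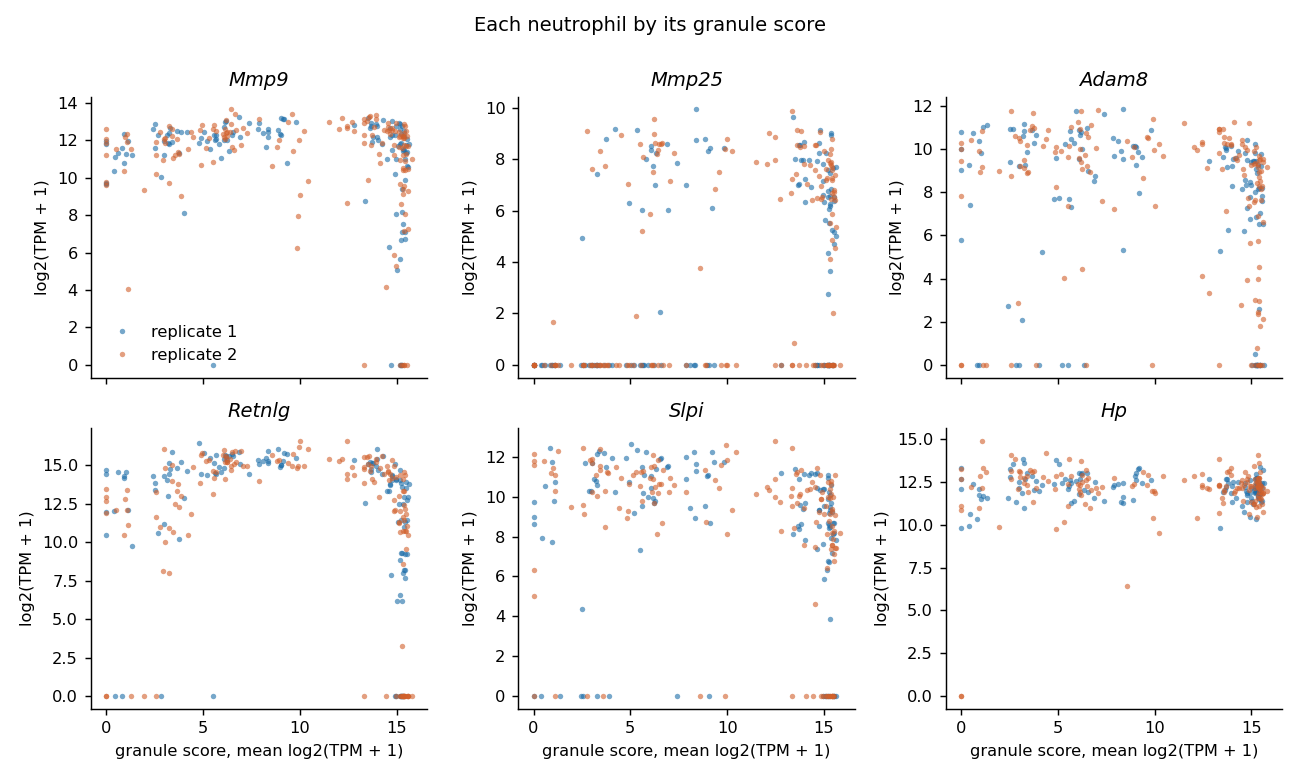
Log2(TPM + 1) of each gene (vertical axes) against the granule score (horizontal axis) in each of the 286 neutrophils, coloured by replicate. Points at 0 are cells where the gene is listed at 0. The highest Retnlg value, 100039 TPM, was in a granule-middle cell, and cells near a score of 15 spread from 0 upwards for every gene except Hp.

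The granule-high class was mixed in the other genes as well. Its cells with Mki67 or Top2a had less Retnlg (3628 and 2707 TPM by replicate) than those without (7733 and 7832 TPM), less Adam8 (167 and 152 against 359 and 445 TPM) and less Mmp25 (38.5 and 78.3 against 134 and 131 TPM). Slpi went in opposite directions in the replicates, with 379 and 626 TPM in cells with Mki67 or Top2a and 587 and 505 TPM in those without. Hp was 4062 and 4725 TPM against 4933 and 4989 TPM. These cells also had more genes above 0, a median of 2873 and 2232 against 2025 and 2017. The values are a description of 27 cells, with no test.

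The genes most alike to each of the 6 across neutrophils were taken as those with the highest Spearman correlation averaged over the 4 plates. For Mmp9 these were Mmp8 (mean rho 0.71), the collagenase of neutrophils, Lcp1 (0.56), an actin-bundling protein, and Pkm (0.49), a glycolytic enzyme. Mmp8 was also first for Mmp25 (0.48), followed by Cd177 (0.46), a neutrophil surface protein, and Itgb2l (0.37), and it was the second for Retnlg (0.60), after S100a11 (0.62) and before Prr13 (0.54). Mmp8 had 5636 and 6162 TPM in the granule-high class, 11272 and 11024 in the granule-middle class and 3280 and 4102 in the granule-low class. It passed in all comparisons, with log2 folds of 0.92 for granule-middle against granule-high (adjusted p = 0.00244), -1.60 for granule-low against granule-middle (0.000497) and -0.68 for granule-low against granule-high (0.00336). Adam8 was most like Slc16a3 (0.47), a lactate transporter, Mxd1 (0.47), a partner of Max, and Gp49a (0.41). Slpi was most like H2-D1 (0.44), a class I histocompatibility gene, Ftl1 (0.43), the ferritin light chain, and Fxyd5 (0.43). Hp had mean correlations of 0.28 with Nlrp12 and 0.28 with H3f3a, lower than those given for the other genes.

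Other granule genes ran mostly the other way from Slpi and Adam8. Of 9 further genes of the specific granule and its membrane, 8 were tested, and 5 were lower and none higher in the granule-low than in the granule-high class. These were Chi3l3, Cybb (log2 fold -3.41), the oxidase subunit, Cd177 (-3.25), Pglyrp1 (-0.72) and Mmp8. Chi3l3 had 13590 and 14589 TPM in the granule-high class and 0.711 and 47.0 TPM in the granule-low class, so its replicates differ widely in fold. The same 5 were lower in the granule-low than in the granule-middle class, where the median over the 8 was -1.25 against 0.19 for all genes. Of 8 azurophil and early precursor genes 1 passed the filter, the ficolin gene Fcnb, which was lower in the granule-low than in the granule-high class (adjusted p = 0.0313). It had 677 and 531 TPM in the granule-high class and 109 and 0 TPM in the granule-low class, and its fold is not given because 1 replicate is listed at 0. Of 53 genes named Mmp or Adam with a number, apart from the 3 proteases above, 5 were tested and 34 were listed at 0 in every cell used. Beside Mmp8, Adam19 was called, at 15.1 and 11.0 TPM in the granule-high class and 44.5 and 87.1 TPM in the granule-low class (log2 fold 2.18, adjusted p = 0.0358).

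Among the inhibitors of metalloproteinases, Timp2 and Reck were tested of 5 genes and neither was called between classes, and the other 3 were listed at 0 throughout. Timp2 had 22.0 and 23.2 TPM in the granule-high class and 73.9 and 50.6 TPM in the granule-low class (adjusted p = 0.0979). Of 17 other protease inhibitors in the table, 7 were tested, 3 were higher and 1 lower in the granule-low than in the granule-high class. Cst3, cystatin C, was higher (log2 fold 1.37, adjusted p = 0.00151) and Serpinb1a, an inhibitor of elastase, lower (-4.24, adjusted p = 0.00169). The stefins Stfa2l1 and Stfa2 were also higher, but they belong to a family of near-identical copies, so their reads may be split between them, and each is listed at 0 in the granule-high class of replicate 1. Of the partners of Hp in haem handling, Hmox1, haem oxygenase 1, was the only one of 4 tested, and it was higher in the granule-low than in the granule-high class (log2 fold 2.66, adjusted p = 0.00624). Of 6 acute phase genes 2 were tested, and Orm1, at 187 and 194 TPM in the granule-high class, was listed at 0 and 0.627 TPM in the granule-low class.

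Genes known to rise late in neutrophil maturation, a list also chosen with earlier results known, were nearly all higher where the score was low. Of 11 tested, 10 were higher in the granule-low and 9 in the granule-middle than in the granule-high class, and 0 were lower. Over all genes tested the shares called higher were 14.7% and 5.85%. The list shares Csf3r, Cxcr2, Fpr1 and Il1r2 with the neutrophil markers used above, so it is not separate from them. Csf3r, the receptor of granulocyte colony-stimulating factor, had a log2 fold of 3.84 for granule-low against granule-high (adjusted p = 3.76e-05) and 1.94 for granule-low against granule-middle (adjusted p = 0.00332). Selplg, a selectin ligand, had 3.35 and 1.05, and the chemokine gene Ccl6 7.50 and 1.53, the last not past the threshold (adjusted p = 0.172). Csf3r and Selplg were higher in the granule-low than in the granule-middle class, where Retnlg, Mmp9 and Mmp25 were lower. Of 15 proliferation genes 4 were tested, and Birc5, Mki67 and Ube2c were lower in the granule-low than in the granule-high class. Mki67 had 24.1 and 21.3 TPM in the granule-high class and 2.99 and 1.33 TPM in the granule-low class.

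Mmp9, Adam8, Retnlg, Slpi and Hp were higher in neutrophils, taken as 1 group, than in the 40 other sorted cells. Mmp25 was called higher too, but the filter on low values was taken here over all 326 cells. In the other cells alone Mmp25, with a mean of 3.76 TPM and 2.50% of cells above 0, lay below both limits. It was thus tested only through its level in neutrophils, and its call adds nothing to that. In this comparison 25.2% of 4584 genes tested passed, 8.9% as higher and 16.3% as lower. At least 3 monocyte markers were above 0 in 27 of these 40 cells and at least 3 neutrophil markers in 13, so they are a mixture. The other cells had a median of 3146 and 2726 genes above 0 by replicate, against 1713 and 1531 in neutrophils. Gene number and cell type thus differ together here. Retnlg had 22166 and 20815 TPM in neutrophils and 163 and 127 TPM in the other cells (log2 fold 7.21, SE 0.18, limma adjusted p = 1.63e-19), and was above 0 in 9 of 40 of them (22.5%, exact 95% interval 10.8% to 38.5%). Mmp25 had 123 and 134 TPM against 7.53 and 0 TPM, and 1 of the 40 other cells had a value above 0 (2.50%, interval 0.0633% to 13.2%). Its fold is not given because 1 replicate of the other cells is listed at 0. Mmp9 had 4045 and 4108 TPM against 278 and 266 TPM (log2 fold 3.90), Adam8 729 and 833 TPM against 52.7 and 75.7 TPM (3.60), and Hp 5142 and 5741 TPM against 1349 and 1159 TPM (2.12).

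Slpi was the least distinct between the cell classes. It had 1419 and 1408 TPM in neutrophils and 797 and 282 TPM in the other cells (log2 fold 1.57, SE 0.35, adjusted p = 0.0148), with 57.5% of the other cells above 0 (exact 95% interval 40.9% to 73.0%). The granule-high class alone had 524 and 538 TPM of Slpi, below the other cells in replicate 1 and above them in replicate 2. Single other cells reached 6589 TPM, close to the highest neutrophil at 7176 TPM. The direction held in all 20 alternatives, with log2 folds from 0.37 to 3.66, and the call was lost in 7. Among these were the fits without cells with Mki67 or Top2a (log2 fold 1.31, adjusted p = 0.214) and without the replicate block (adjusted p = 0.0776). Another was that in cells with 1000 to 2000 genes (log2 fold 0.37, adjusted p = 0.839). That subset held 4 and 6 other cells by replicate, and its median log2 fold over all genes was 1.60. At the threshold that defined neutrophils, the cell just below it had 4019 TPM of S100a8 and S100a9, with 1783 TPM of Mmp9, 2334 TPM of Slpi and 10.8 TPM of Retnlg. The cell just above it had 12512 TPM, with 4448 TPM of Hp, 161 TPM of Slpi and the other 4 genes listed at 0. This fit has 1 residual degree of freedom, and its errors lean on the variance that limma takes from all genes.

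The differences between granule classes were refitted under other processing choices. Granule-middle against granule-high for Retnlg kept its direction in all 22 alternatives, with log2 folds from 0.50 to 6.27, and kept its call or had no test in 19 of them. Slpi in granule-low against granule-high kept its direction in all 24 alternatives, from 0.76 to 2.67, and its call or value in 23. When the score was taken as its residual on the number of genes above 0, none of the 6 genes passed in any comparison. Under that score the folds of granule-low against granule-high were 0.76 for Slpi, 0.53 for Adam8, 0.29 for Hp, 0.03 for Retnlg, -0.16 for Mmp9 and -1.27 for Mmp25. Gene number and score move together in these cells, and which of them the levels follow cannot be told apart from TPM alone.

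**Figure D4:**
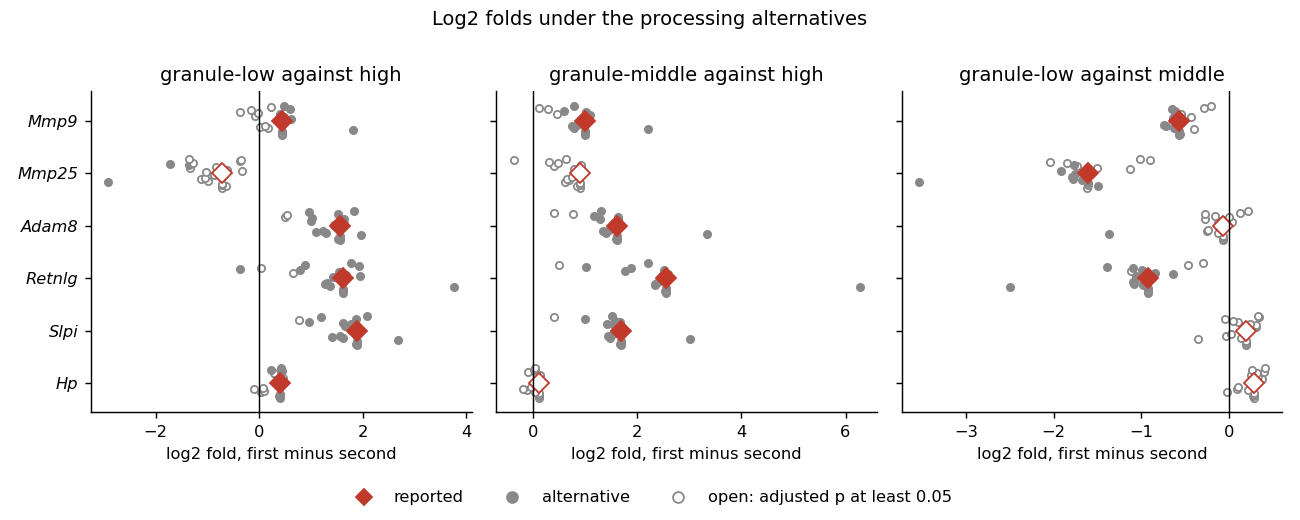
Log2 folds (horizontal axes, first class minus second) of each gene in the 3 comparisons between granule classes, as reported (red diamonds) and under each alternative with a test (circles). Filled symbols passed an adjusted p of 0.05. Mmp9 crossed 0 in granule-low against granule-high, from -0.37 to 1.82, and Retnlg stayed above 0 in granule-middle against granule-high.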

How the data were processed

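The authors deposited TPM values for 23420 genes per cell. RSEM and mm10 are named, per the submitters' processing notes. The aligner, software versions and gene models were not given in the sources used here. Of 384 labelled cells, 326 have a column and 58 were not analysed here. No cell was filtered out and no doublet caller was run. TPM keeps no depth, and a gene listed at 0 may be one whose estimate failed.

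For each class and replicate the mean TPM over its cells was taken as log2(mean TPM + 1) and fitted in R 4.3.3 by limma 3.58.1 with its trend and robust options. The fit had a replicate block because every class is cut from the same 2 replicates, and p-values were adjusted by Benjamini-Hochberg at 0.05. The 3 granule classes were 6 averages in 1 fit with 2 residual degrees of freedom. To these limma added a prior of 4.94 to 4.99 degrees of freedom, taken from all genes. The score genes, and S100a8 and S100a9 between cell types, were not tested. Scripts ran in Python 3.11.15. The limma step was tried on the real neutrophils dealt at random to the classes, with some genes multiplied by known folds. The outcome of that trial is not reported here. Intervals on shares are exact binomial and cover counting error only.

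The 6 genes, the gene lists and the tests were chosen with earlier results of these data known. Named genes were the 6, the score genes, the 3 most correlated tested genes of each, and, from each list, up to 4 called genes with the largest absolute fold of granule-low against granule-high, or up to 2 of the most abundant where none was called; some genes that this rule names are not reported here. Chil3 is listed as Chi3l3, and 1 of 18 listed protease inhibitors was not matched. Positions are GENCODE M21 and promoters RefSeq, with entries for 4 of the 6 genes (not Mmp9 or Hp). Alternatives changed the pseudocount, filter, averaging, scaling, block, limma options, cells used, score and number of classes. The subsets without Mki67 or Top2a and with 1000 to 2000 genes were added after seeing the data.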

Additional observations from a re-analysis of the deposited data

How the results depend on the processing

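Counts of genes called, 828 for granule-low against granule-high, 280 for granule-middle against granule-high, 159 for granule-low against granule-middle and 1155 for neutrophils against other cells, are given in this order. They were 107, 0, 0 and 0 with no filter on low values (2221, 1470, 1168 and 2313 genes at an unadjusted p under 0.05), 2010, 1212, 441 and 2093 with the mean of log values, 397, 2, 0 and 409 without limma's trend and robust options (1283, 770, 704 and 1475 at an unadjusted p under 0.05), and 884, 311, 170 and 865 without the replicate block. They were 385, 89, 7 and 316 without cells with 3 proliferation genes, 482, 92, 57 and 593 in cells with 1000 to 2000 genes, and 468, 30 and 52 with the score adjusted for genes above 0. The third count was 105 with a pseudocount of 0.1, 20 with the score from Ltf and Camp and 90 without cells with Mki67 or Top2a. The last count was 651 with a stricter filter, 453 with a threshold of 30000 TPM and 288 without cells with Mki67 or Top2a. Higher genes were 71.7% of those called for granule-low against granule-high, 57.4% and 48.3% after rescaling without score genes and without S100a8, S100a9 and Rn45s as well, and 55.3% with median-centred averages, as the median fold of all genes went from 0.31 to 0.03, -0.17 and -0.02.

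Log2 folds of granule-low against granule-high that lost their call were as follows. With no filter Mmp9 (0.44, adjusted p = 0.122) and Hp (0.39, 0.195) did. Without limma's options Adam8 (1.55, 0.0641), Retnlg (1.63, 0.0616), Mmp9 and Hp did, at unchanged folds. Rescaled without score genes Mmp9 was 0.17 and Hp 0.10, without S100a8, S100a9 and Rn45s as well 0.0239 and -0.10, and median-centred 0.12 and 0.0665. With the mean of log values Hp was 0.0293, and Mmp25 gained a call at -2.92. With 2 classes in place of 3 Mmp9 was 0.22. Without cells with 3 proliferation genes Retnlg was 0.64, Hp 0.46 and Mmp9 -0.0785. Without cells with Mki67 or Top2a Mmp9 was -0.0198 and Mmp25, now called, -1.36. In cells with 1000 to 2000 genes Adam8 was 0.50, Hp 0.31, Mmp9 -0.37, Retnlg -0.38 (called) and Mmp25 -1.73 (called). With the score adjusted for genes above 0 Adam8 was 0.53, Hp 0.29, Retnlg 0.031, Slpi 0.76 and Mmp9 -0.16. For granule-low against granule-middle the call was lost for Mmp25 in 10 of 22 alternatives, for Mmp9 in 7 and for Retnlg in 6, all 3 with no filter (adjusted p = 0.365, 0.350 and 0.350), without limma's options (0.187, 0.434 and 0.287), without cells with 3 proliferation genes (0.147, 0.123 and 0.123), with the adjusted score (0.318, 0.378 and 0.219) and with the score from Ltf and Camp (0.277, 0.404 and 0.302). The causes were not tested.

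Directions of values that were not called turned as follows. For granule-low against granule-middle Adam8 was 0.0365 with the threshold of 30000 TPM, 0.0001 without cells rich in Rn45s, 0.12 with the adjusted score and 0.21 with the score from Ltf and Camp, Hp was -0.0229 and Slpi -0.35 with the mean of log values, and Slpi was -0.0371 after the further rescaling and -0.0425 in cells with 1000 to 2000 genes. For granule-middle against granule-high Hp was -0.12 and -0.19 after the rescalings, -0.0377 median-centred and -0.089 in cells with 1000 to 2000 genes, and Mmp25 was -0.36 with the adjusted score. Leaving out each replicate in turn gave values with no test, which kept the direction of each of the 24 folds; for granule-low against granule-high they were 1.47 to 1.63 for Adam8, 0.27 to 0.52 for Hp, -0.74 to -0.69 for Mmp25, 0.43 to 0.45 for Mmp9, 1.48 to 1.78 for Retnlg and 1.88 to 1.89 for Slpi. Without the replicate block 1 of the 24 calls changed, that of Slpi between cell types. With 2 replicates and no depth, small differences such as those of Hp are at the limit of what these data resolve.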
